A study of Drosophila melanogaster with 3 samples.

Results

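The Cpr genes are the 70 protein-coding genes, of 13945 on the 6 arms (2L, 2R, 3L, 3R, 4 and X) of the Drosophila melanogaster genome, whose annotated symbol is Cpr followed by a digit. The rule uses the symbol alone and no measured value. Lpt (Lost PHDs of trr), a subunit of the Trr complex that methylates histone H3, was profiled by chromatin immunoprecipitation with an antibody against GFP in a transgenic line with GFP at the C terminus of Lpt. The chromatin came from whole white prepupae, males and females pooled and of unknown age in hours, in 3 biological replicates of 1 technical replicate each. These 3 samples form 1 group. No untagged or input sample was analysed here, so all values are descriptions, with no test between groups. The sources used here do not say which promoter drives the fusion, and the epidermis was not separated from other tissues. In chromatin of whole animals, fewer cells with Lpt-GFP at a site and less of it per cell cannot be told apart.

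Proteins of the CPR family carry the Rebers and Riddiford consensus, a stretch that binds chitin, and with chitin fibres they make up much of the insect cuticle. Different sets of these genes are transcribed in epidermal cells for larval, pupal and adult cuticle, in waves ordered by ecdysone and by the nuclear receptors and other transcription factors that it induces. At the white prepupa stage the larval cuticle is about to harden into the puparium and the epidermis prepares pupal cuticle. The Trr complex deposits H3K4 monomethylation at enhancers and binds with the ecdysone receptor, from earlier work in Drosophila.

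Cpr genes were short, mostly single-promoter genes in tandem groups. Their median length was 1093.5 bp (457 to 18590 bp), against 2166 bp over all coding genes. Of the 70, 63 had 1 annotated transcription start site (TSS) and 7 had 2. The arm 3L held 35, 2R held 21, 2L and 3R held 5 each, X held 4, and chromosome 4 held none. Joined where gene bodies lay within 10 kb of the next member, they formed 13 clusters with 49 genes and 21 solitary genes. The largest clusters, Cpr47Ea to Cpr47Eg on 2R and Cpr65Au to Cpr65Az on 3L, held 7 genes each. The neighbours in a cluster can share a peak, so the genes are not independent of each other.

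Few Cpr genes had an Lpt-GFP peak at their promoter. The peaks were those that passed the authors' irreproducible discovery rate (IDR) threshold, which keeps peaks ranked alike between replicates, and the summit is the base of highest enrichment in a peak. A summit of an IDR peak lay within 1 kb of a TSS of 8 of 70 Cpr genes (11.4%), against 2682 coding genes (19.2%). Within 5 kb of the gene body there was a summit at 28 of 70 Cpr genes (40%), against 6314 coding genes (45.3%). Replicates were compared through the strongest peaks of each replicate list, as many as there are IDR peaks. Among these, 4, 5 and 6 Cpr genes had a promoter summit in replicates 1, 2 and 3, which is 5.00 ± 1.00 (SD, n = 3). All coding genes had one in 19.6%, 19.2% and 19.3% of cases in the same replicates, against 5.71%, 7.14% and 8.57% of Cpr genes there. The promoter share of Cpr genes was below that of all coding genes in each replicate, and in the IDR list the shares within 5 kb lay closer together. A stricter count kept only the IDR peaks that were also strong in both replicates other than replicate 1, 2 or 3. A drop is built into this filter, which gave 4, 3 and 2 Cpr genes with a promoter summit (5.71%, 4.29% and 2.86%, against 13.2%, 14.4% and 14.8% of coding genes). Within 5 kb the same filter gave 17, 13 and 10 Cpr genes (24.3%, 18.6% and 14.3%, against 34.8%, 36.6% and 36.9% of coding genes).

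**Figure D1:**
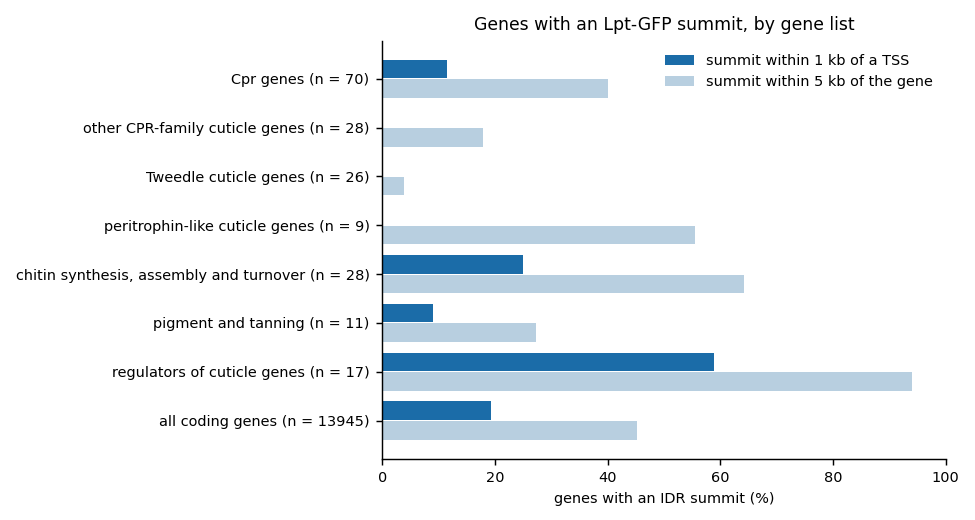
Share of genes with an IDR summit up to 1 kb from a TSS (dark bars) and within 5 kb of the gene body (light bars), in percent, for Cpr genes, the other gene lists and all coding genes. For Cpr genes the bars stand at 11.4% and 40%, against 19.2% and 45.3% for all coding genes.

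Between genes with 1 TSS in the same length range the IDR shares lay closer together, whereas in the strongest peaks of each replicate the promoter share of Cpr genes stayed lower. Of Cpr genes with 1 TSS and a length between the 10th and 90th percentile of the family (604.6 to 4738.8 bp), 5 of 52 had a promoter summit (9.62%), against 12.3% of 7599 other coding genes with 1 TSS in that range. Within the range the Cpr genes were still shorter, with a median of 1055.5 bp against 1612 bp. In the strongest peaks of each replicate the promoter share was 5.77% ± 1.92 of those Cpr genes and 12.3% ± 0.689 of those other genes (SD, n = 3). Within 5 kb the IDR shares were 38.5% of those Cpr genes and 38.6% of those other genes. Under 1 kb in length, 2 of 33 Cpr genes (6.06%) and 6.85% of other coding genes had a promoter summit. The replicate shares there were 5.05% ± 1.75 and 6.89% ± 0.373 (SD, n = 3). From 1 to 2 kb the IDR shares were 15.0% of 20 Cpr genes and 12.7% of other coding genes, and the replicate shares were 6.67% ± 5.77 of Cpr genes and 12.5% ± 0.757 of other coding genes (SD, n = 3). At 2 kb and over the IDR shares were 17.6% of 17 Cpr genes and 27.1% of other coding genes. The replicate shares there were 11.8% ± 5.88 and 27.5% ± 0.565 (SD, n = 3). In that class too the Cpr genes were shorter, with a median of 3575 bp against 4635 bp. Cpr genes with a promoter summit had a median length of 1675.5 bp, against 996.5 bp for those without. In the IDR list the gap was widest among long genes, where the count rests on 3 Cpr genes. The part of length and TSS number in the lower share was not tested.

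The 8 Cpr promoters with an IDR summit lay on 3 arms. Signal is the enrichment the authors gave each peak within its list, so it ranks peaks of one list, and its scale differs between lists (median 18.5, 25.02 and 16.7 in replicates 1, 2 and 3). The strongest was at Cpr62Ba (3L:1824129-1831783, minus strand, dm6), 800 bp upstream of the nearer of its 2 TSS and inside an intron of its longer transcript. Its pooled signal was 220.6, rank 1969 in the IDR list, and its replicate signals were 55.7, 94.7 and 68.1. The peak at Cpr72Eb (3L:16364899-16365707, plus strand) had its summit 498 bp upstream of the TSS, a pooled signal of 213.5 and replicate signals of 74.1, 84.6 and 49.9. These 2 peaks were the only ones of the 8 that lay among the strongest of each of the 3 replicates.

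The sequences at these peaks are shown because they are the sites with the best replicate support. Cpr97Eb and Cpr66Cb were added as promoter peaks with support in 1 replicate. The promoter peaks of Cpr50Ca, Cpr49Ah and Cpr47Ec, with support in 2 replicates, and that of Cpr76Bc are not shown, so the set is a selection. Each is 101 bases around the summit, on the strand of the gene, from the RefSeq release 6 genome (dm6). Capitals mark a match to one of the 9 searched motifs listed further on.
Cpr62Ba (3L:1829692-1829792, minus strand): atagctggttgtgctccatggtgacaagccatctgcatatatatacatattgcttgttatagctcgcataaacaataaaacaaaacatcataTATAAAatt
Cpr72Eb (3L:16364351-16364451, plus strand): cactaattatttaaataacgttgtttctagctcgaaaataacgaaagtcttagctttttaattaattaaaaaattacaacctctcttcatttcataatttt
Cpr66Cb (3L:8336364-8336464, plus strand): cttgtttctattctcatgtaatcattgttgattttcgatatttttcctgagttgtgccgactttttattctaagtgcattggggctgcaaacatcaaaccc
Cpr97Eb (3R:27091350-27091450, minus strand): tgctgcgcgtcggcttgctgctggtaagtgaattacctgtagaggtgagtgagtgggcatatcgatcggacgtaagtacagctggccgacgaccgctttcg
The summit windows of Cpr72Eb and Cpr62Ba were AT-rich, with 22.8% and 31.7% GC, and that of Cpr97Eb was the richest in GC of the 4, at 56.4%.

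Support was weaker at the other 6. Cpr50Ca (2R:13769915-13787802, plus strand) had a summit 285 bp upstream of the TSS, with a pooled signal of 184.4 and 34.9, 84.9 and 71.0 in replicates 1, 2 and 3. It was among the strongest peaks of replicates 2 and 3, and a second IDR summit lay 1375 bp upstream with a signal of 111.4. Cpr49Ah (2R:12413962-12415170, plus strand) had a summit 608 bp upstream, with a pooled signal of 125.5 and replicate signals of 51.9, 30.1 and 51.2. Its peak was among the strongest in replicates 1 and 3 and not in replicate 2. Cpr47Ec (2R:11259106-11259976, minus strand) had a summit 894 bp downstream of the TSS, just inside the 1 kb limit and beyond the 3′ end of the gene. Its pooled signal was 121.0 and its replicate signals were 21.3, 69.6 and 36.1, with support in replicates 2 and 3.

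The last 3 were each among the strongest peaks of a single replicate. Cpr97Eb (3R:27089704-27091130, minus strand) had a summit 270 bp upstream, a pooled signal of 132.7 and replicate signals of 47.6, 49.6 and 23.0, with support in replicate 1. Cpr66Cb (3L:8336672-8338595, plus strand), the only solitary gene of the 8, had a summit 258 bp upstream, a pooled signal of 114.6 and replicate signals of 28.7, 48.5 and 33.3, with support in replicate 3. Cpr76Bc (3L:19520945-19527272, plus strand) had a summit 87 bp downstream of the TSS, the closest of all, a pooled signal of 112.3 and replicate signals of 24.0, 62.4 and 21.4, with support in replicate 2. No Cpr gene without an IDR promoter summit had one among the strongest peaks of any replicate.

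Just outside the 1 kb limit stood Cpr73D, Cpr72Ea, the second site of Cpr50Ca, Cpr76Bb and Cpr51A. The summit at Cpr73D was 1160 bp from its TSS and 765 bp from that of Ogdh, the gene of a subunit of the 2-oxoglutarate dehydrogenase complex. The summit at Cpr72Ea was 1204 bp upstream, with a pooled signal of 151.3, and had no other coding TSS nearer. The summit at Cpr76Bb, 1383 bp from its TSS, was the one at the start of Cpr76Bc. The summit at Cpr51A was 1409 bp from its TSS and 228 bp from that of CG30197. With a limit of 500 bp, 5 Cpr genes had a promoter summit (7.14%), against 15.9% of coding genes. With 2000 bp there were 13 Cpr genes (18.6%), against 24.6% of coding genes.

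Lpt-GFP peaks nearest to Cpr genes ranked low in the IDR list. The 28 genes with a summit within 5 kb, a share near that of all coding genes, shared 22 distinct summits. Of these, 16 lay within 1 kb of a TSS of some gene, 4 were intergenic, 2 were intronic and none was exonic. The nearest coding TSS was that of a Cpr gene for 13 summits and of another gene for 9. The 13 nearest to a Cpr gene had signals of 111.4 to 220.6, with a median of 132.7. The 9 nearest to another gene had signals of 118.4 to 893.0, with a median of 152.7, and all IDR peaks had a median of 170.1 and a minimum of 109.5. The highest of the Cpr-nearest peaks was that of Cpr62Ba, and the 2 strongest peaks within 5 kb of any Cpr gene lay nearer to other genes. One of these, of rank 62, lay 80 bp from the TSS of CG11309, near Cpr78Cc, with replicate signals of 242.3, 457.0 and 189.3. The other, of rank 274, lay 544 bp from the TSS of Pen, an importin gene, near Cpr31A, with replicate signals of 191.4, 186.7 and 177.3.

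At promoters the order was the same. The 8 Cpr promoter summits had a median signal of 129.1, against 176.6 for the 2600 IDR summits within 1 kb of any coding TSS. Their median rank was 4771.5, and 3 of the 8 ranked above the middle of the list. Among the 22 summits near Cpr genes, 6 (27.3%) ranked with the strongest in each of the 3 replicates, against 63.5% of IDR peaks. A further 10 were so in 2 replicates, against 25.7% of IDR peaks, and 6 in 1 replicate, against 10.2%. By replicate, 13, 14 and 17 of the 22 were among the strongest, against 85.7%, 85.1% and 81.3% of all IDR peaks. Signal and replicate support come from the same lists and are not independent measures.

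**Figure D2:**
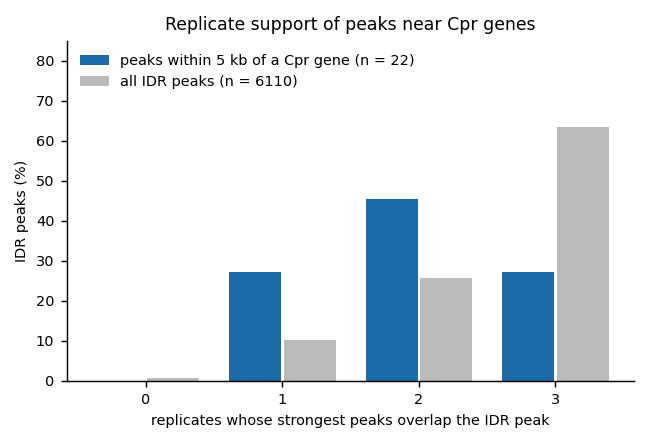
Share of IDR peaks, in percent, by the number of replicates (0 to 3) whose strongest peaks overlap them, for the 22 peaks with a summit within 5 kb of a Cpr gene (blue) and for all IDR peaks (grey). In the highest class stand 27.3% of peaks near Cpr genes and 63.5% of all IDR peaks.

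In the full peak lists, before any reproducibility threshold, a smaller share of Cpr promoters than of all coding promoters had a peak. Their percentile averaged over replicates also had a lower median, whereas the medians within single lists were mostly tied at 0. Beside genes with 1 TSS in the same length range the values went both ways. Any peak of the pooled list overlapped the window of 1 kb on each side of a TSS at 29 of 70 Cpr genes (41.4%), against 48.2% of coding genes. In replicates 1, 2 and 3 a peak overlapped it at 26, 25 and 29 Cpr genes (37.1%, 35.7% and 41.4%), against 51.7%, 48.7% and 48.2% of coding genes. For each gene the strongest such peak was given its percentile within the replicate list, with 0 where there was none, and the percentiles were averaged over replicates. The median over Cpr genes was 6.74, against 17.2 over all coding genes. Without replicate 1, 2 or 3 it was 1.59, 3.78 and 0 over Cpr genes, with no value over all coding genes beside it. Within the pooled list and within replicates 2 and 3, the median percentile was 0 over Cpr genes and 0 over all coding genes. Within replicate 1 it was 0 over Cpr genes and 7.8 over all coding genes. The medians that follow are of the averaged percentiles. Among genes with 1 TSS and a length in the range given above, the median was 6.74 over 52 Cpr genes and 4.77 over 7599 other coding genes. A pooled peak overlapped the window at 44.2% of those Cpr genes and 36.7% of those other genes. In replicates 1, 2 and 3 a peak did so at 38.5%, 34.6% and 40.4% of those Cpr genes. The shares of those other genes were 40.7%, 37.7% and 37.6%. Under 1 kb in length, the median was 0 over Cpr genes and 0 over other coding genes. There a pooled peak overlapped the window at 30.3% of Cpr genes and 29.6% of other coding genes. In replicates 1, 2 and 3 the shares were 27.3%, 21.2% and 27.3% of Cpr genes, against 31.3%, 28.5% and 33.2%. From 1 to 2 kb in length, the median was 11.1 over Cpr genes and 5.98 over other coding genes. At 2 kb and over it was 14.9 over Cpr genes and 41.6 over other coding genes. From 1 to 2 kb a pooled peak overlapped the window at 55% of Cpr genes and 37.5% of other coding genes. The shares in replicates 1, 2 and 3 were 45%, 50% and 45%, against 41.7%, 39.1% and 37.9%. At 2 kb and over the pooled shares were 47.1% and 60.4%. There the replicate shares were 47.1%, 47.1% and 64.7% of Cpr genes, against 64.4%, 60.9% and 58.9%. No replicate had a peak at 31 Cpr promoters, among them all but 2 of the 7 genes of the Cpr65Au to Cpr65Az cluster, and Cpr47Ef, Cpr47Eg, Cpr62Bb and Cpr62Bc. In the windows of Cpr65Ax1 and Cpr65Ax2, 64.9% and 64.0% of the 31-base words occur more than once on the 6 arms. Whether they share these words with each other was not measured. How reads from such repeated words were placed is not given in the sources used here, so the lack of peaks at both genes is uncertain. No other Cpr window exceeded 10%.

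The 10 highest Cpr promoters by mean percentile were Cpr62Ba (92.4), Cpr72Eb (91.9), Cpr50Ca (88.2), Cpr73D (80.5), Cpr49Ah (79.5), Cpr97Eb (78.5), Cpr66Cb (77.2), Cpr47Ec (76.4), Cpr76Bc (71.7) and Cpr97Ea (70.3). All 8 genes with an IDR promoter summit were in this group. Cpr73D had window peaks of 37.3, 56.7 and 29.0, and Cpr97Ea had 26.3, 32.1 and 32.1, in replicates 1, 2 and 3. Neither was among the strongest of any replicate with its summit within 1 kb. Replicates differed for some genes: Cpr30B had no peak in replicates 1 and 2 and stood at the percentile 70.6 in replicate 3.

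**Figure D3:**
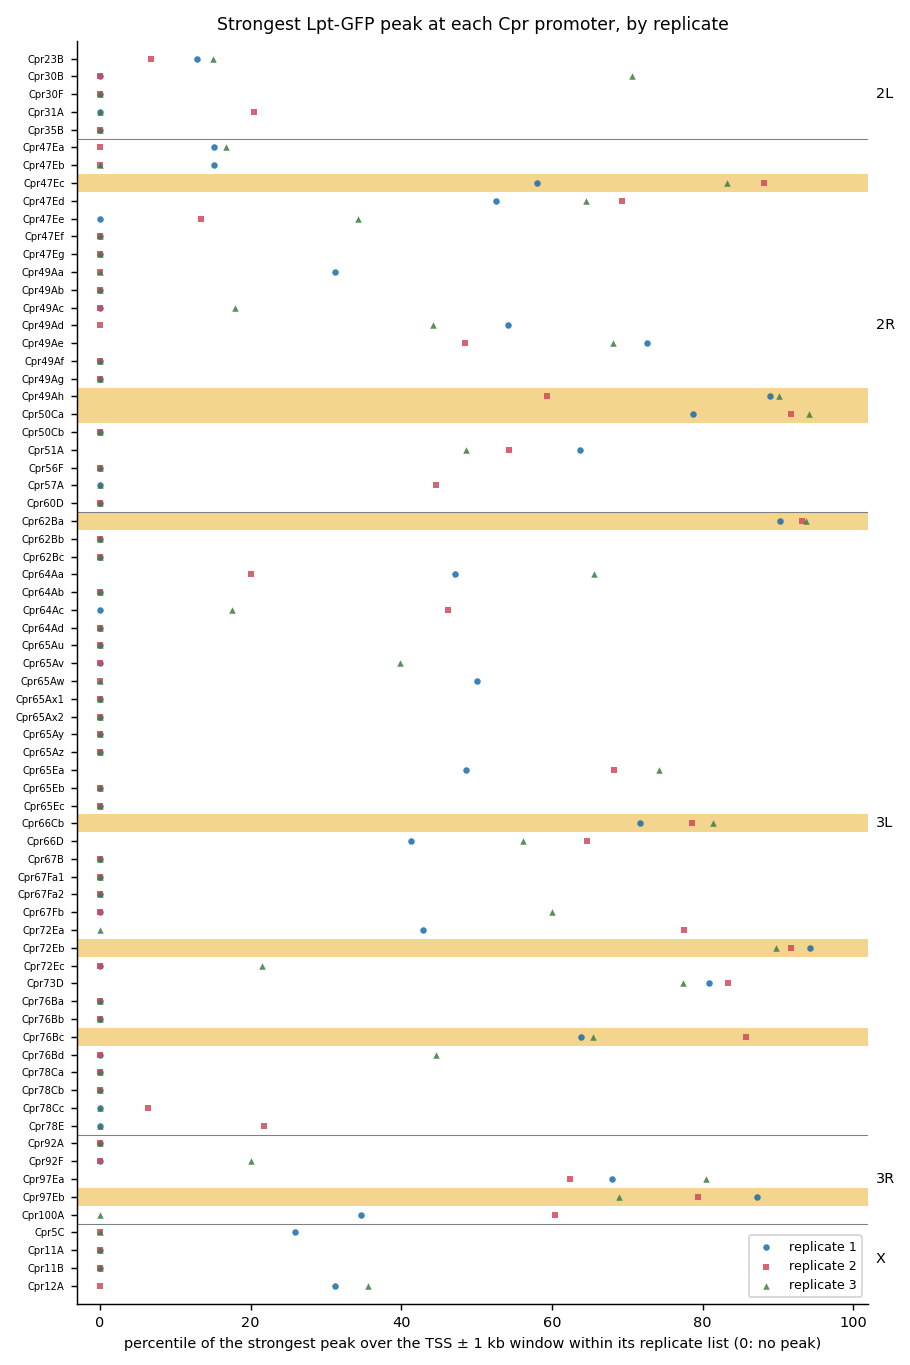
Percentile, within its replicate list, of the strongest Lpt-GFP peak over the window of 1 kb on each side of a TSS, for each of the 70 Cpr genes in genome order (0 where no peak overlaps); circles, squares and triangles are replicates 1, 2 and 3. Yellow bands mark the 8 genes with an IDR promoter summit, and 31 genes have all 3 points at 0.

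Clusters mostly had a peak somewhere, and at the limit of 1 kb never at more than 1 promoter. A summit lay within 5 kb of a member in 11 of 13 clusters and at 6 of 21 solitary genes. A cluster joins several gene bodies and their flanks, so it offers more places for a summit than 1 gene. By gene, 22 of 49 clustered Cpr genes (44.9%) and 28.6% of solitary ones had a summit within 5 kb, against 45.3% of coding genes. With only the IDR peaks strong in both replicates other than 1, 2 or 3, the clusters with such a summit numbered 6, 5 and 3. A promoter summit was found in 7 of 13 clusters, each at a single gene, and at 1 of 21 solitary genes. By gene, 7 of 49 clustered Cpr genes (14.3%) and 1 of 21 solitary ones (4.76%) had a promoter summit, against 19.2% of coding genes. The clusters Cpr49Aa to Cpr49Ad and Cpr64Aa to Cpr64Ad had no summit within 5 kb. Per 100 kb of Cpr genes with 5 kb on each side, 593.8 kb in all, there were 3.70 IDR summits, against 4.57 in the rest of the arms. With the strongest peaks of each replicate the density was 2.69, 2.86 and 3.37 per 100 kb, 2.98 ± 0.351 (SD, n = 3), against 4.57 in the rest, where the same number of peaks kept from each replicate fixes the value. With all peaks of the pooled list it was 24.8 summits per 100 kb near Cpr genes, against 22.4 in the rest. Near Cpr genes the density was higher than elsewhere with every pooled peak counted and lower with the IDR peaks or the strongest peaks of each replicate.

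Within clusters the peaks stood at different places. In the Cpr72Ea to Cpr72Ec cluster, 2 IDR peaks flanked Cpr72Ea, at 1204 bp upstream of it and at 498 bp upstream of Cpr72Eb, and none lay over Cpr72Ec. In the Cpr62Ba to Cpr62Bc cluster, the intronic peak of Cpr62Ba was joined by an intergenic summit 2752 bp upstream of Cpr62Bc, with a pooled signal of 165.2 and replicate signals of 32.9, 97.9 and 33.7. That peak was highest in replicate 2. In the Cpr97Ea to Cpr97Eb pair, the promoter peak of Cpr97Eb was joined by an intronic peak of Cpr97Ea, 1785 bp from its nearest TSS, with a pooled signal of 116.7 and replicate signals of 46.1, 43.2 and 22.2. In the Cpr76Ba to Cpr76Bd cluster, the peak at the start of Cpr76Bc was the only IDR peak.

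**Figure D4:**
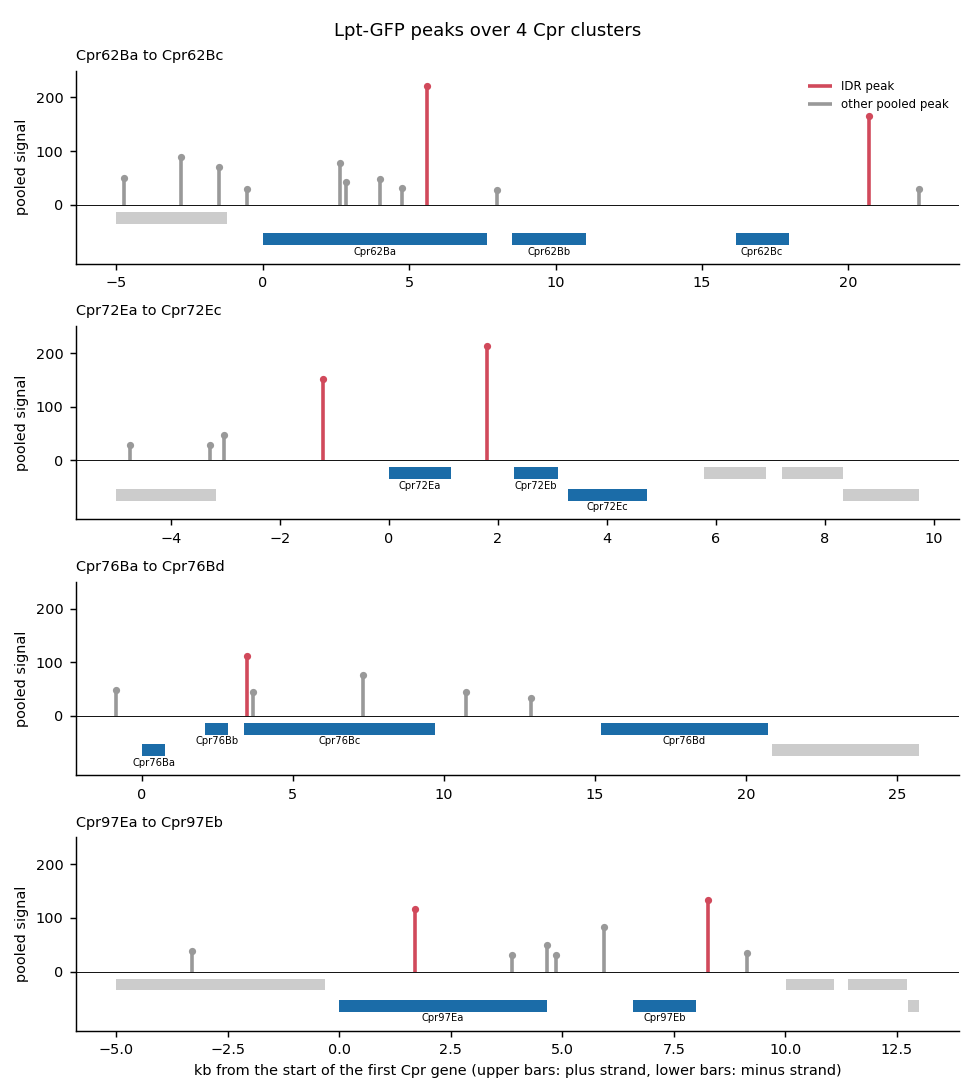
Pooled signal of Lpt-GFP peaks (vertical lines at their summits; red for IDR peaks, grey for other pooled peaks) over 4 Cpr clusters, against distance in kb from the start of the first Cpr gene. Blue bars are Cpr genes and grey bars other coding genes, with the plus strand above and the minus strand below; IDR peaks stand at 220.6 in Cpr62Ba, 213.5 before Cpr72Eb, 112.3 at Cpr76Bc and 132.7 before Cpr97Eb.

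The clusters Cpr47Ea to Cpr47Eg, Cpr49Ae to Cpr49Ah and Cpr50Ca to Cpr50Cb had their strongest peak at the promoter of a member, described above. In the Cpr65Au, Cpr65Ea, Cpr67Fa1 and Cpr78Ca clusters it was nearest to another gene. The 1 summit near Cpr65Ax2 and Cpr65Ay was nearest to CG13297, with a signal of 139.3. That near Cpr65Ec lay in an intron of the formin gene form3, with a signal of 152.7, and that near Cpr67Fb at the promoter of Aps, with a signal of 131.4. Among solitary genes, the peak near Cpr67B (168.0) was nearest to CG4022 and the peak near Cpr100A (159.2) to CG15545. Both of these were strong in each of the 3 replicates. The 2 summits near Cpr51A had signals of 141.3, at 3008 bp upstream in intergenic sequence, and 118.4, inside the gene near the TSS of CG30197.

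**Figure D5:**
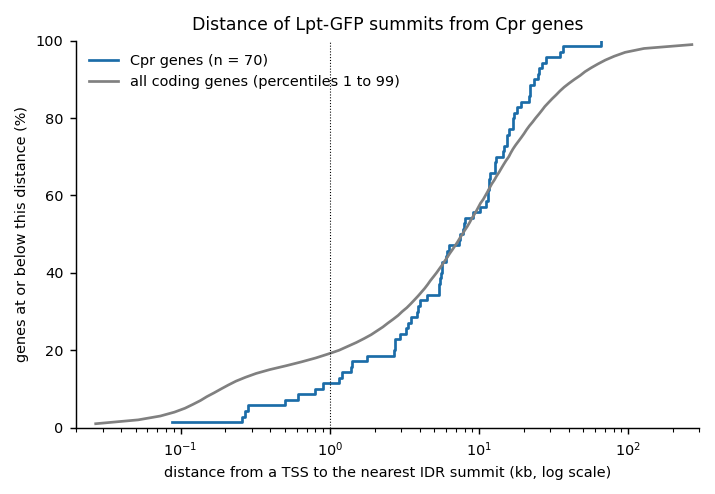
Cumulative share of genes, in percent, by distance in kb (log scale) from a TSS to the nearest IDR summit, for the 70 Cpr genes (blue) and all coding genes (grey, percentiles 1 to 99). The dotted line is 1 kb, where 11.4% of Cpr genes and 19.2% of all coding genes have been reached, and the curves meet near the medians of 7612 and 7733 bp.

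Distance to the nearest IDR summit had a median of 7612 bp over Cpr genes (87 to 65286 bp), against 7733 bp over all coding genes. Over 20 kb away were 11 Cpr genes (15.7%), against 24.1% of coding genes. Cpr92F on 3R was farthest, at 65286 bp, followed by Cpr49Aa, at 36728 bp, and Cpr49Ab, at 34914 bp. Cpr genes thus had lower shares than all coding genes both within 1 kb of a summit and beyond 20 kb, and a like median. By arm, a promoter summit was found at 4 of 35 Cpr genes on 3L, 3 of 21 on 2R, 1 of 5 on 3R, none of 5 on 2L and none of 4 on X. Over all coding genes the shares were 20.7% on 3L, 18.2% on 2R, 20.02% on 3R, 17.1% on 2L and 20.6% on X, and counts of 0 among 4 or 5 genes show little beside them. The 4 on X also had no summit within 5 kb, against 45.9% of coding genes on X.

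Other gene lists of the cuticle gave shares above and below that of Cpr genes. Of 28 further CPR-family genes (the Lcp, Ccp84A and Edg genes and their like, with resilin, the elastic cuticle protein), none had a promoter summit and 5 (17.9%) had one within 5 kb. Of 26 Tweedle genes, another family of structural cuticle proteins, none had a promoter summit and 1 (3.85%) had one within 5 kb. Of 9 peritrophin-like cuticle genes, none had a promoter summit in the IDR list and 5 had one within 5 kb. Among the strongest peaks of replicates 1, 2 and 3, promoter summits were found at 0, 2 and 1 of these 9 genes. Of 28 genes of chitin synthesis, assembly and turnover, 7 (25%) had a promoter summit and 18 (64.3%) had one within 5 kb. Of 17 regulators of cuticle genes, 10 (58.8%) had a promoter summit and 16 (94.1%) had one within 5 kb. These lists differ in gene structure: the regulators had a median length of 33354 bp and 3 TSS, and the chitin genes a median of 3453.5 bp and 1 TSS. Of 11 pigment and tanning genes, 1 had a promoter summit and 3 had one within 5 kb.

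Cpr promoters were richer in GC than all coding promoters and held TATAAA more often. Windows of 250 bases before to 50 after the first TSS had a median GC of 45.5% in Cpr genes, against 38% in all coding genes. Windows of 100 bp on each side of the summits near Cpr genes had a median GC of 31.8%, against 36.3% at all IDR summits. The 9 motifs were searched on both strands. GAGAGAG is bound by GAGA factor. TATAAA is the TATA box, and TCAGT is part of the initiator. The nuclear receptor sites were searched as AGGTCA and, with an extension that contains it, as CAAGGTCA. The letters AACCGGTT are those of Grainy head, CCGGAA those of Ets factors and TATCGATA those of DREF. CACACA is a plain repeat. TATAAA was in 70% of Cpr windows, against 45.8% of all coding windows. TATCGATA was in 1.43% of Cpr windows, against 9.36%, and GAGAGAG in 1.43%, against 5.87%. TCAGT was in 60% against 51.5%, CACACA in 24.3% against 19.2%, AGGTCA in 4.29% against 5.88% and CCGGAA in 4.29% against 6.78%. CAAGGTCA and AACCGGTT were in no Cpr window, against 0.495% and 0.753% of all coding windows. At the 22 summits near Cpr genes, AGGTCA was found at 2 (9.09%), against 3.67% of all IDR summits, CCGGAA at 1 (4.55%), against 2.93%, and GAGAGAG at 1 (4.55%), against 8.23%. There TATAAA was at 27.3%, against 30.8%, TCAGT at 27.3%, against 34.9%, and CACACA at 18.2%, against 19.9%. TATCGATA, CAAGGTCA and AACCGGTT were at none of the 22, against 1.10%, 0.213% and 0.540% of all IDR summits.

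The position of TATAAA was then compared. On the strand of the gene, TATAAA starting 40 to 20 bases before the TSS, a window set after the motif counts were seen, was in 34 of 70 Cpr genes (48.6%), against 7.79% of all coding genes. It was in 2 of the 8 Cpr genes with a promoter summit and in 32 of the 62 without. To compare core promoters, the 60 bases before the TSS are shown for a selection of the 8 Cpr genes with a promoter summit. Those of Cpr50Ca, Cpr49Ah and Cpr47Ec are left out. The bases are on the strand of the gene in dm6, with TATAAA and TCAGT in capitals.
Cpr72Eb (3L:16364839-16364898, plus strand): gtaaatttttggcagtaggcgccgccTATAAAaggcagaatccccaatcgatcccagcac
Cpr97Eb (3R:27091131-27091190, minus strand): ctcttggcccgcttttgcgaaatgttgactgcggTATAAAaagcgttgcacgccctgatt
Cpr66Cb (3L:8336612-8336671, plus strand): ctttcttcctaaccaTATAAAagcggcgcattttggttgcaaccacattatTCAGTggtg
Cpr62Ba (3L:1831784-1831843, minus strand): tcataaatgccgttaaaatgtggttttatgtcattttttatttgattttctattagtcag
Cpr76Bc (3L:19520885-19520944, plus strand): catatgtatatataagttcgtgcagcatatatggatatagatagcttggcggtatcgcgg
Cpr72Eb and Cpr97Eb have the motif within the window, Cpr66Cb has it slightly farther from the annotated TSS, and Cpr62Ba (at the start of its longer transcript) and Cpr76Bc lack these letters. The summit of Cpr62Ba lies nearer its other TSS, whose core promoter was neither shown nor searched for TATAAA. A match is a description of the letters and does not show that a factor binds there.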

How the data were processed

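Peak lists deposited in dm6 were used; those in dm3 were not. Per the deposited descriptions, each replicate list and the pooled list were inputs of the IDR procedure. In each list the authors give a signal per peak (enrichment within that list) and the offset of the summit; both deposited values were used as given, signal to rank peaks. Which aligner, peak caller and threshold were used is not given in the sources used here. Depth in reads is unknown, and controls were not analysed here. The 3 samples were labelled as biological replicates. Lists held 30000, 30000 and 27893 regions, with 30000 in the pooled list.

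Distances were measured to Ensembl release 115 genes of the release 6 genome (Python 3.11.15, numpy 2.4.6, matplotlib 3.10.9), and sequences read from the RefSeq release 6 genome; counting was tested on simulated peaks. Members, lists and motifs were chosen with earlier results of these data known. Of 12 pigment names, 11 matched. Named genes were members with a promoter summit and the strongest peak's member and nearest gene in each cluster or locus. The 10 members of highest mean percentile and those beside the 1000 bp limit were also named. Others, such as Cpr30B, Cpr92F, Cpr49Aa, Cpr49Ab, Cpr65Ax1 and Cpr65Ax2, were chosen after their values were seen.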

Additional observations from a re-analysis of the deposited data

How the results depend on the processing

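Of 40 alternative values, 14 lay within the tolerance (a factor of 1.5 for counts of genes or clusters) and 26 moved. For the median percentile the tolerance was the SD of the replicate medians, which was 0. Any change in that median therefore counted as a move, so its moves show nothing about how stable it is. The values have no sign to reverse. Leaving out each replicate in turn, which for IDR peaks also adds the filter that they be strong in both others, gave 2 to 4 Cpr genes with a promoter summit (main 8), 10 to 17 with one within 5 kb (main 28), and 3 to 6 clusters (main 11). Without replicates 1, 2 and 3 the promoter share was 5.71%, 4.29% and 2.86% of Cpr genes, against 13.2%, 14.4% and 14.8% of coding genes. The upper part of the IDR list gave 3 promoter genes, 8 within 5 kb and 4 clusters, and peaks strong in all 3 replicates gave 2, 9 and 3. Of Cpr genes these are 4.29% and 11.4%, against 11.5% and 30.2% of coding genes, for the upper part (promoter and 5 kb), and 2.86% and 12.9%, against 12.5% and 33.0%, for all 3 replicates. Limits of 500 and 2000 bp gave 5 and 13 promoter genes, and 2 kb from the gene gave 16 (22.9%, against 31.3% of coding genes). The median percentile (main 6.74) was 0 to 3.78 without 1 replicate, 0 within 500 bp, 62.1 over the gene with 5 kb on each side and 23.5 without genes lacking a peak. The 3000 and 10000 strongest peaks of each replicate gave a mean of 3 and 10 genes (main 5), and leaving out a replicate 4.5 to 5.5. No share of coding genes was set beside the means of 3 and 10, so these cannot be compared with other genes. The cause of these moves was not tested beyond the construction of each setting, which changes how many peaks or bases count. No paired analysis was possible because there is 1 group. With no control and unknown depth, a missing peak shows only that none was listed.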

Other observations

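Among the chitin genes, chosen here after their values were seen, the promoter summits were at Cht7 (pooled signal 467.4, rank 415) and Cht11 (248.7), which are chitinase genes, at Cht2 (226.2), at knk (183.7), which organises chitin fibres, at mmy (165.3), which makes the sugar precursor of chitin, at the chitinase-like Idgf2 (155.6) and at the deacetylase gene Cda4 (147.7). All 7 exceeded the 129.1 median of the 8 Cpr promoter summits. Against the median of 176.6 for IDR summits within 1 kb of any coding TSS, mmy, Idgf2 and Cda4 lay below and the other chitin genes above. The Cpr promoter summits of Cpr62Ba, Cpr72Eb and Cpr50Ca also lay above it. The chitin synthase gene kkv had no promoter summit and 2 summits within 5 kb. The 17 regulators, with a median length of 33354 bp against 1093.5 bp for Cpr genes, had between 0 (rib) and 29 (Eip75B) IDR summits within 5 kb of the gene, and Cpr genes had at most 2.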
